A study of Salmo salar with 26 samples.

Results

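Cataract was compared with clear lenses among the Atlantic salmon (Salmo salar) lens libraries that were rich in connexin 43, a gap junction protein (gap junction alpha-1) that joins lens epithelial cells. The 14 libraries, of 26 in all, were chosen by their measured level of this transcript and were those with at least 13.68 RPKM (reads scaled to transcript length and library size, as deposited) of the unigene CL2590.Contig1, whose best protein hit was connexin 43. They held 4 diploid fish with cataract (2N+), 4 diploid fish without (2N-), 3 triploid fish with cataract (3N+) and 3 triploid fish without (3N-), so that 7 cataract lenses stood against 7 clear ones. Diploid salmon carry the usual pair of chromosome sets and triploid salmon carry an additional one. The labels give no treatment beyond sorting by ploidy, and no strain, age or grade of cataract. Poly(A) RNA of a homogenised lens from a separate fish was sequenced for each library, and a fish carried its own body weight and length in the labels. The question was which transcripts differed with cataract once lenses poor in connexin 43 were set aside.

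The vertebrate lens is a body of elongated fibre cells under a single front layer of epithelial cells, all inside a capsule. Epithelial cells divide, move to the equator and differentiate into fibres, which fill with crystallins and are braced by the beaded filament proteins filensin and phakinin. Cataract is a clouding of this tissue, and it is a known production disease of farmed salmon.

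Connexin 43 itself chose the libraries, so its levels are given as a description only. Cataract lenses above the threshold had 23.7 to 109 RPKM with a median of 73.4, and clear lenses had 45.8 to 72.1 RPKM with a median of 63.0. The lowest library kept had 23.7 RPKM and the highest one set aside had 7.89 RPKM. The threshold lies inside this gap, and the same values chose the libraries, so the gap is no check of the split. Other genes of the epithelium were then read in the same libraries. A forkhead box E4-like unigene (CL2152.Contig1), a relative of the epithelial regulator FoxE3, had a median of 17.7 RPKM in the connexin 43-rich lenses and 0.71 RPKM in the poor ones. All 6 unigenes named Pax-6, the eye master regulator that stays on in lens epithelium, had a higher median in the rich lenses, by 2.86 to 4.24 times, against a median ratio of 1.29 over all unigenes. These Pax-6 contigs come from few assembly clusters and may share reads. SOX3 did not separate the libraries, with medians of 125 RPKM in the rich and 118 RPKM in the poor lenses, and E-cadherin had no matching protein name. All Sox-2 contigs went the other way. Their medians in the rich and poor lenses were 25.4 and 30.0 RPKM (CL858.Contig1), 18.3 and 23.0 RPKM (CL1160.Contig2), and 1.93 and 3.21 RPKM (CL1160.Contig1). Leaving out connexin 43, which made the split, 19 of 24 unigenes in the epithelium and development list had a higher median in the rich lenses, a share no larger than the 81.9% of all unigenes that did so. For 6 of the 24 every rich lens lay above every poor one, against 3.21% of all unigenes. The first of these counts is thus no check of the label. The 6 without overlap were the forkhead box E4-like unigene and contigs named Pax-6 or prospero homeobox 1-like. Other contigs of these 2 names overlapped. Prospero homeobox 1-like Unigene8584, for instance, had medians of 15.3 RPKM in the rich and 14.9 RPKM in the poor lenses. For CL214.Contig2 of the same name they were 0.23 and 0.26 RPKM. A lens sample with fewer epithelial cells and one with less of these RNAs in each cell cannot be told apart in whole-lens RNA. The lenses are therefore called connexin 43-rich here.

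**Figure D1:**
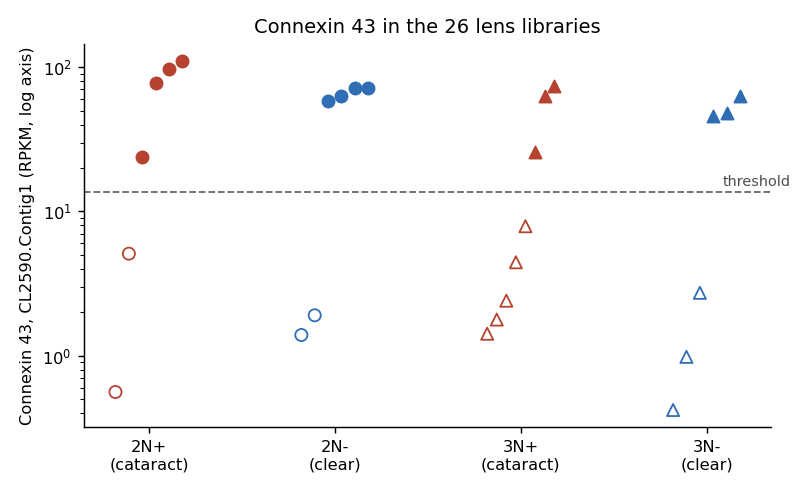
Connexin 43 (CL2590.Contig1) in RPKM on a log axis in all 26 lens libraries by group, with cataract groups in red, clear groups in blue, circles for diploids and triangles for triploids. Filled symbols are the 14 libraries at or above the dashed threshold of 13.68 RPKM, and a gap between 7.89 and 23.7 RPKM parts them from the open ones.

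The 14 libraries held 9.76 to 11.9 M counted reads each, and the median over all unigenes and these libraries was 17 reads. Of 26681 unigenes, which are contigs assembled from the reads, 17947 had enough reads to be tested. Gene names below are those of the best protein hit that the authors deposited for a contig, so a name marks resemblance, and near-identical copies in the duplicated salmon genome may share reads. Retina markers took 0.469% of reads in 2N+ replicate 2, 0.114% in 2N+ replicate 3 and 0.278% in 3N- replicate 1, and these 3 libraries stand apart from the other 11. Calls without them are given beside the results that they change.

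Cataract went with a change in 283 unigenes (1.58% of those tested) at an adjusted p below 0.05. In the cataract lenses 59 unigenes rose (0.329%) and 224 fell (1.25%). Changes are on the log2(scaled RPKM + 0.5) scale, as cataract minus clear with ploidy in the model. Among the unigenes that rose the median log2 change was 0.90, and among those that fell it was -0.84. A change of at least 2-fold was reached by 26 of those that rose and by 79 of those that fell. A protein hit was lacking for 129 of the 283, which is 45.6% of them, against 45.7% of all unigenes tested. With RPKM as deposited, all 7 cataract lenses lay above all 7 clear ones for 1.23% of the unigenes tested and below them all for 0.279%. In the text "rose" and "fell" are used only of unigenes that passed this test or, where another fit is named, the same threshold in that fit.

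The number of calls depended on the covariates and on which fish were in the comparison. Body weight and the surface epithelium share entered as covariates on the log2 scale. With body weight as a covariate 8 unigenes were called (0.0446%), with the surface epithelium share as a covariate 29, and without the 3 libraries with retina markers 56, of which 49 were among the 283. Of 62 called unigenes that are named here all kept their sign without those 3 libraries, 9 stayed called and the others had adjusted p of 0.0538 to 0.284. That fit was left with 5 cataract and 6 clear lenses. All 283 kept their sign with body weight in the model, and the median changes became 0.79 and -0.76. Leaving out single lenses gave 133 calls without 2N- replicate 5, 143 without 2N- replicate 1, 155 without 2N+ replicate 3, 177 without 2N- replicate 6 and 183 without 3N- replicate 4, and without 2N- replicate 3 the calls shared with the 283 numbered 136. In all 14 such fits 16 unigenes that rose and 100 that fell stayed called. The split of directions depended on the scaling. On RPKM as deposited 858 unigenes passed, of which 688 rose (3.83%) and 170 fell (0.947%), because leaving out the scaling moved the median of all unigenes from 0.02 to 0.19 on the log2 scale. On that deposited scale all 283 kept their sign, and 59 of the 59 and 158 of the 224 still passed. The fits in this paragraph reuse the lenses that chose the 283, so a kept sign in them is no separate evidence.

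Body weight moved with cataract in these fish. The 7 fish with cataract weighed 590 ± 139 g (SD) and the 7 without weighed 382 ± 214 g (exact permutation test within ploidy, two-sided, p = 0.00857, adjusted p = 0.0184 over 15 measures). Without the 3 retina-marked libraries the difference with ploidy held was 151 g and did not pass (adjusted p = 0.122). Among diploids the weights did not overlap, with 460 to 530 g in 2N+ and 110 to 345 g in 2N-. In that ploidy weight and cataract cannot be told apart. Among triploids they did overlap, with 640, 640 and 860 g in 3N+ fish, against 360, 640 and 700 g in 3N- fish. The 700 g fish (3N- replicate 4) was labelled 28.5 cm long, while 3N- replicate 6 at 640 g was labelled 38 cm. Which of these labels is right cannot be told here. Length also differed, at 36.4 ± 2.78 cm with cataract and 30.1 ± 4.73 cm without (exact permutation p = 0.00429, adjusted p = 0.0129).

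Several enzymes and signalling proteins had the largest falls among named unigenes. Adenosine deaminase (Unigene4383), which turns adenosine into inosine, had a lowest, median and highest level of 8.04, 15.4 and 35.5 RPKM in cataract lenses, against 44.7, 54.1 and 57.2 RPKM in clear lenses. The groups did not overlap, and the log2 change was -1.996 ± 0.23 (SE, adjusted p = 0.00128). A DEP domain-containing mTOR-interacting protein (DEPTOR)-like unigene (Unigene4123), whose mammalian relative restrains the growth kinase mTOR, had 12.9, 34.2 and 58.4 RPKM in cataract lenses, against 76.9, 84.7 and 113 RPKM in clear lenses. It fell by 1.76 ± 0.25 on the log2 scale (adjusted p = 0.00331), again with no overlap. A tripartite motif-containing protein 60-like unigene (Unigene5114) had 4.15, 5.92 and 6.97 RPKM with cataract, against 9.42, 11.4 and 14.9 RPKM without, a log2 change of -1.23 ± 0.14 (adjusted p = 0.00128). These 3 unigenes stayed below 0.05 in all 14 fits that left out 1 lens and without the 3 libraries with retina markers. With body weight in the model their adjusted p were 0.064 for adenosine deaminase, 0.154 for the DEPTOR-like unigene and 0.0604 for the tripartite motif one.

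Other falls were seen at lower abundance or with more spread. A homer 2-like scaffold protein (CL3023.Contig2), which in mammals ties glutamate and calcium-release receptors together at synapses, had 3.04, 11.4 and 18.2 RPKM in cataract lenses, against 14.6, 29.0 and 52.2 RPKM in clear lenses. The groups overlapped in 1 cataract lens, and the log2 change was -1.72 ± 0.39 (adjusted p = 0.0399, up to 0.0911 when 1 lens was left out). A cytosolic carboxypeptidase 6-like unigene (Unigene14374), of a family that trims glutamate from tubulin, averaged 1.80 ± 2.10 RPKM with cataract and 6.82 ± 1.86 RPKM without (log2 change -2.19 ± 0.37, adjusted p = 0.00737). The cataract lens of 3N+ replicate 5 was high for this unigene, at 6.10 RPKM. The other cataract lenses, down to 0 RPKM, had 10 reads or fewer at the median library size. This contig of 276 bases was thus tested through the clear lenses, since the filter asked for more than 10 reads in at least 7 libraries. A lipocalin precursor (Unigene4386), of a family of carriers for small fatty molecules, had 38.5, 62.2 and 96.7 RPKM in cataract lenses, against 90.6, 118 and 209 RPKM in clear lenses, and fell by 1.20 ± 0.21 on the log2 scale (adjusted p = 0.00825). Only the highest cataract lens reached the range of the clear ones. Without the retina-marked libraries the lipocalin was not called (adjusted p = 0.0789), while homer 2-like (0.0436) and carboxypeptidase 6-like (0.0418) were.

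Another 6 unigenes completed the 12 lowest changes. Cytosolic thymidine kinase (Unigene5947), which salvages thymidine for DNA synthesis, averaged 1.19 ± 0.36 RPKM with cataract and 3.66 ± 2.61 RPKM without (log2 change -1.27). The cohesin subunit REC8 (Unigene6656), known from meiosis, fell by 1.24, and an attractin-like unigene (Unigene3900) by 1.18. A latent-transforming growth factor beta-binding protein 2-like unigene (Unigene11450), a relative of a microfibril protein of the eye, averaged 0.839 ± 0.867 RPKM with cataract and 3.28 ± 1.69 RPKM without (log2 change -1.63). Most cataract lenses had 10 reads or fewer of this contig of 494 bases, so it passed the filter mainly through the clear lenses. Cytochrome c oxidase subunit Vb (Unigene9769), part of the last respiratory complex, fell by 1.19. It was the 1 member of 126 tested in the oxidative phosphorylation list that passed, beside 1.25% of all unigenes that fell. A transposase (CL1639.Contig1), the enzyme of DNA transposons, averaged 35.7 ± 15.8 RPKM with cataract and 65.6 ± 15.1 RPKM without, a log2 change of -1.15 ± 0.20. With 1 lens left out the adjusted p reached 0.0591 for the binding protein, 0.0683 for the attractin-like unigene and 0.0844 for the oxidase subunit, while the others of these 6 stayed called. None of the 6 was called without the retina-marked libraries (adjusted p of 0.0963 to 0.264).

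Among named unigenes the largest rises were those of a Rab-32-like contig and of a short contig with a PRDM9 hit. The largest log2 change of any unigene that rose was 2.75, in a contig without a gene name. A Rab-32-like unigene (Unigene10053), of a small GTPase family for organelle traffic, had a lowest, median and highest level of 2.78, 5.70 and 12.4 RPKM in cataract lenses, against 0.66, 1.18 and 2.91 RPKM in clear lenses. Its log2 change was 1.64 ± 0.28 (adjusted p = 0.00732), and 6 of 7 cataract lenses exceeded every clear lens. A contig of 251 bases (CL3702.Contig2) had its best hit in PRDM9, a histone methyltransferase that marks sites of meiotic recombination in mammals. It had 3.69, 12.7 and 19.9 RPKM with cataract, against 1.81, 2.93 and 4.03 RPKM without (log2 change 1.64 ± 0.30, adjusted p = 0.0119). A longer contig of the same assembly cluster (CL3702.Contig1, 1216 bases) had a zinc finger protein 135-like hit. It rose by 1.26 ± 0.28 (adjusted p up to 0.0817 with 1 lens left out), and the pair may share reads. Whether CL3702.Contig2 belongs to PRDM9 is not settled by so short a contig. Both Rab-32-like and PRDM9 stayed below 0.05 whichever single lens was left out, but the adjusted p was 0.0544 for Rab-32-like, 0.149 for PRDM9 and 0.238 for the zinc finger contig without the 3 libraries with retina markers.

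Proteins of the cell surface and of calcium or lipid binding were among the other rises. Galectin-3-like (CL99.Contig1), a lectin for galactose-bearing sugars, had 4.51, 10.4 and 18.2 RPKM in cataract lenses, against 2.46, 3.97 and 4.996 RPKM in clear lenses (log2 change 1.14 ± 0.25, adjusted p = 0.0297). Copine-2 (Unigene13732), a calcium-dependent lipid-binding protein, rose by 1.36 ± 0.29 and its groups did not overlap. Kinase SIK1 (Unigene21314), an AMP-kinase relative, averaged 7.08 ± 1.51 RPKM with cataract and 3.06 ± 1.17 RPKM without (log2 change 0.95 ± 0.17, adjusted p = 0.0106). FXYD domain-containing regulator 5a (Unigene722), of a family that tunes the sodium pump, rose by 0.87 ± 0.19 with no overlap between groups. Differentially regulated trout protein 1 (Unigene8813) averaged 68.8 ± 26.9 RPKM with cataract and 27.0 ± 8.04 RPKM without, a log2 change of 1.117 ± 0.22. Zinc finger protein 391 (Unigene6503) rose by 1.31 and myosin-Va (Unigene17849), an actin motor that carries organelles, by 0.77. A more abundant rise, chosen after its values were seen, was that of scinderin like a (CL1331.Contig3), of a family of calcium-dependent actin-severing proteins, with 510 ± 126 RPKM in cataract lenses and 275 ± 45.5 RPKM in clear lenses (log2 change 0.68 ± 0.14, adjusted p = 0.0247). Of these 8 unigenes SIK1 alone was called in all 14 fits that left out 1 lens. Across those fits the highest adjusted p of the others ran from 0.0557 for trout protein 1 to 0.111 for myosin-Va. None of the 8 was called without the retina-marked libraries, with adjusted p from 0.0722 for SIK1 and scinderin like a to 0.240 for myosin-Va.

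**Figure D2:**
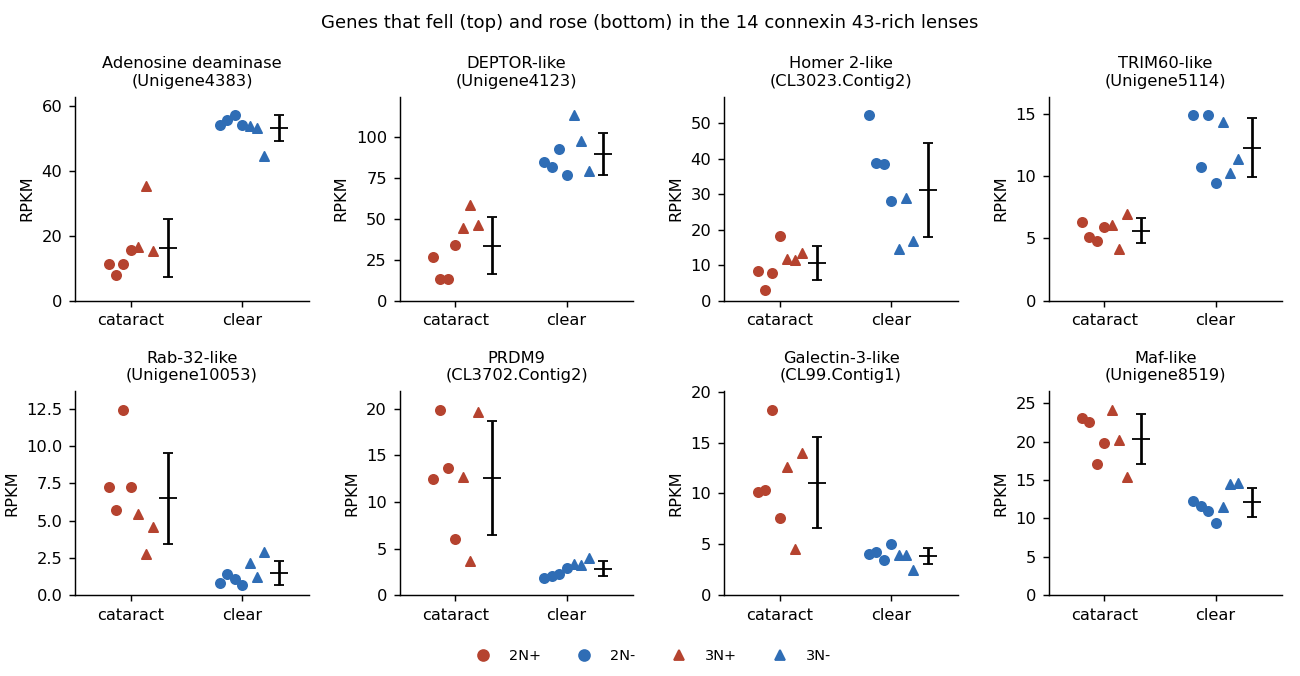
RPKM as deposited of 8 unigenes in the 14 connexin 43-rich lenses, cataract (red) left of clear (blue), circles for diploids and triangles for triploids, with black bars for mean and SD (n = 7 each). The 4 unigenes of the upper row fell and the 4 of the lower row rose, and adenosine deaminase shows 35.5 RPKM at most with cataract and 44.7 RPKM at least without.

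2 protein names were carried by contigs that moved in opposite directions. Glycylpeptide N-tetradecanoyltransferase 1, the enzyme that attaches myristate to proteins, averaged 20.9 ± 12.5 RPKM with cataract and 7.43 ± 4.31 RPKM without for Unigene8559 (log2 change 1.27 ± 0.28), but 47.6 ± 11.1 RPKM with cataract and 67.98 ± 8.93 RPKM without for CL533.Contig2 (log2 change -0.72 ± 0.16). Matrix metalloproteinase-14-like, a membrane-bound enzyme that cuts collagen, did likewise, and all 4 contigs could lose their call with 1 lens left out (adjusted p up to 0.0869) and were not called without the retina-marked libraries (0.142 to 0.271). Its contig Unigene12470 averaged 9.68 ± 3.06 RPKM with cataract and 4.71 ± 1.52 RPKM without (log2 change 0.78 ± 0.18). The contig CL384.Contig1 averaged 3.61 ± 1.62 RPKM with cataract and 6.07 ± 0.90 RPKM without (log2 change -0.92 ± 0.20). The 2 metalloproteinase contigs were the only members of 92 tested in the capsule and matrix list that passed. Over all unigenes tested 0.329% rose and 1.25% fell. Whether such contigs are gene copies, alleles or isoforms is not given by the names.

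Crystallins, the proteins that fill the fibre cells, were lower in the cataract lenses. They took 39.6 ± 0.998% of reads in cataract lenses and 42.3 ± 1.19% in clear lenses (SD, n = 7 each), a difference of -2.48 points with ploidy held (exact permutation p = 0.00143, the smallest this design allows, adjusted p = 0.00714). Without the retina-marked libraries it was -2.35 points (exact permutation p = 0.00667, the smallest that the 150 arrangements left allow, adjusted p = 0.05). Of 61 tested crystallin unigenes 0 rose and 12 fell, beside 1.25% of all unigenes that fell. The log2 change was negative for 58, with a median of -0.37, against 47.1% negative and a median of 0.02 over all unigenes tested. On RPKM as deposited the median was -0.18, with 50 negative and 13 that fell. The count of falls was 0 with body weight in the model, 3 without the libraries with retina markers, 2 with the surface epithelium covariate and 34 at 30 RPKM of connexin 43 or above. Of all 224 unigenes that fell, 4, 46, 24 and 194 stayed called in these fits, in the same order. The median crystallin change there was -0.26, -0.28, -0.54 and -0.48, with 58, 56, 60 and 59 negative. With the surface epithelium covariate the calls were thus fewer while the median change was not smaller. With diploids fitted alone, where weight and cataract cannot be told apart, the median crystallin change was -0.60, with 59 negative and 20 that fell. With triploids alone it was -0.08, with 44 negative and 0 that fell. Of all unigenes tested, in either direction, 1.47% were called in diploids alone and 0.0446% with body weight in the model. None of any kind was called in triploids alone, so the 0 crystallin falls there are no result about crystallins. The difference between ploidies passed for no crystallin.

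The beta S family moved most. All 6 tested beta-crystallin S unigenes had a negative change, from -0.92 to -0.69, and 4 of them fell. Of all unigenes tested, 47.1% had a negative change and 1.25% fell. The abundant CL619.Contig2 had a lowest, median and highest level of 1797, 2075 and 2959 RPKM in cataract lenses, against 2560, 3519 and 3851 RPKM in clear lenses. Unigene7957 of the same name averaged 2207 ± 341 RPKM with cataract and 3115 ± 457 RPKM without (log2 change -0.69 ± 0.14, adjusted p = 0.0204). The scarcer beta-crystallin S-1-like contigs CL1572.Contig1 and Unigene6928 fell by 0.92 ± 0.17 and 0.84 ± 0.13 on the log2 scale. In the connexin 43-poor lenses the family had a median change of -0.66.

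Among gamma crystallins single members fell while the most abundant did not pass. The gamma-crystallin N-like unigene CL85.Contig1 had 3911, 4466 and 5463 RPKM in cataract lenses, against 6333, 6951 and 7406 RPKM in clear lenses, with no overlap (log2 change -0.76 ± 0.13, adjusted p = 0.00737). The gamma-crystallin B unigene Unigene6143 was also without overlap, at 3991 ± 828 RPKM with cataract and 5650 ± 196 RPKM without (log2 change -0.72 ± 0.12). Its change was -1.06 in diploids alone and -0.26 in triploids alone, and that difference did not pass (limma, adjusted p = 0.424). Of 27 gamma M unigenes, a class typical of fish lenses, 1 fell, the M2-like Unigene6144 (-0.79 ± 0.13), and 26 had a negative change. Beside these counts, 1.25% of all unigenes tested fell and 47.1% had a negative change. Gamma-crystallin N-A-like (Unigene7771) fell by 0.48 ± 0.11 and the contig CL403.Contig1, a gamma crystallin-like one, by 0.59 ± 0.13. The most abundant gamma M unigene, CL3805.Contig1, averaged 39887 ± 2390 RPKM with cataract and 40286 ± 1592 RPKM without, and did not pass (log2 change -0.21 ± 0.08, adjusted p = 0.272).

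Beta B1 (2 of 5) and beta A1 (1 of 1) had falls, beside 1.25% of all unigenes that fell, and the alpha A change did not pass. Beta-crystallin A1-like (CL4061.Contig1) averaged 18020 ± 1351 RPKM with cataract and 21664 ± 1489 RPKM without (log2 change -0.46 ± 0.11, adjusted p = 0.041). The most abundant unigene of all crystallins, beta B2-like CL1905.Contig1, averaged 52043 ± 2589 RPKM with cataract and 54766 ± 1868 RPKM without, and did not pass (-0.26 ± 0.09, adjusted p = 0.199). Alpha A crystallin (Unigene7428), which also works as a chaperone, averaged 33721 ± 6730 RPKM with cataract and 27149 ± 2343 RPKM without. Its log2 change of 0.10 ± 0.09 did not pass (adjusted p = 0.703) and its sign depended on the fit, at 0.29 as deposited, -0.09 with body weight in the model and -0.17 in the connexin 43-poor lenses. The calls of CL619.Contig2, Unigene7957, CL403.Contig1, Unigene7771 and CL4061.Contig1 were lost when certain single lenses were left out, with a highest adjusted p of 0.0549 to 0.105, whereas those of CL1572.Contig1, Unigene6928, CL85.Contig1, Unigene6143 and Unigene6144 were not. The calls of Unigene6928, CL85.Contig1 and Unigene6143 remained without the retina-marked libraries.

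**Figure D3:**
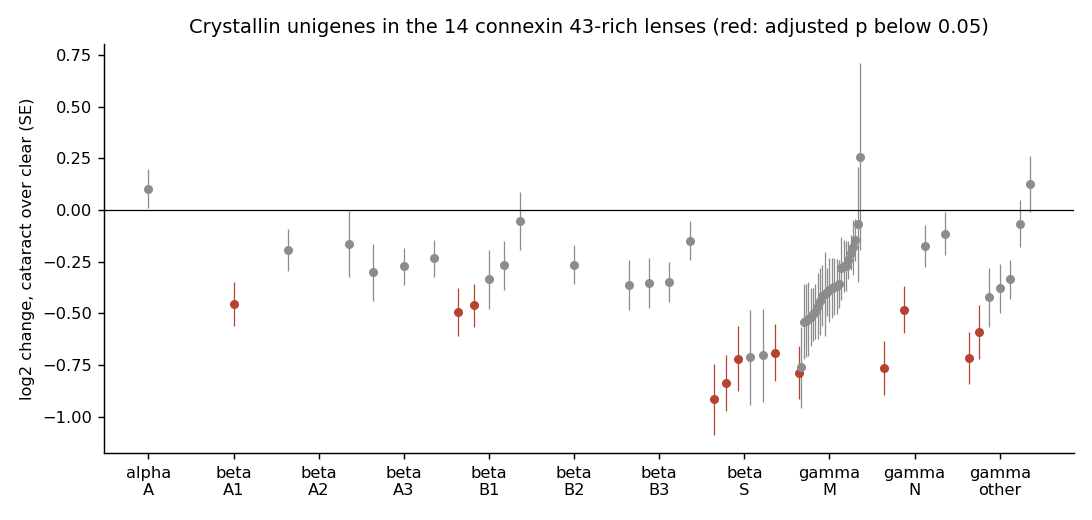
Log2 change of cataract over clear lenses with its SE for each of 61 tested crystallin unigenes, by family, in the 14 connexin 43-rich lenses; the 12 that fell are red. The 6 beta S unigenes lie between -0.92 and -0.69, and alpha A at 0.10.

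Some contigs of the beaded filament proteins fell and others did not pass. Of 25 tested lens fibre unigenes 0 rose and 4 fell, beside 1.25% of all unigenes that fell, with a median change of -0.05, which was 0.14 as deposited. The phakinin-like CL984.Contig1, the most abundant, had 2316, 2709 and 3929 RPKM in cataract lenses, against 3564, 3750 and 3818 RPKM in clear lenses. Most cataract lenses lay below all clear ones, and 1 lay above them all (log2 change -0.58 ± 0.14, adjusted p = 0.0445). Phakinin contigs CL984.Contig2 and CL833.Contig2 fell by 0.58 ± 0.14 and 0.60 ± 0.13, and filensin-like CL655.Contig4 averaged 43.1 ± 4.66 RPKM with cataract and 54.9 ± 4.13 RPKM without (-0.54 ± 0.11, adjusted p = 0.0215). Phakinin CL833.Contig1 (-0.46 ± 0.14, adjusted p = 0.107) and filensin-like CL655.Contig1 (-0.33 ± 0.10, adjusted p = 0.131) did not pass. All 4 that fell lost the call when certain single lenses were left out, with highest adjusted p of 0.0594 to 0.105, and 0 of the list was called without the 3 retina-marked libraries. Vimentin (Unigene7433), an intermediate filament of epithelium and young fibres, did not pass (-0.02 ± 0.09, adjusted p = 0.948), nor did lens fiber membrane intrinsic protein (CL256.Contig3, 0.01 ± 0.11, adjusted p = 0.981).

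Among 20 tested regulators of the epithelium and of lens development 1 rose and 1 fell. Over all unigenes tested 0.329% rose and 1.25% fell. A Maf-like transcription factor (Unigene8519), whose mouse relative switches on crystallin genes in fibres, had 15.4, 20.3 and 24.2 RPKM in cataract lenses, against 9.41, 11.6 and 14.7 RPKM in clear lenses. The groups did not overlap, and the log2 change was 0.54 ± 0.11 (adjusted p = 0.0164, at most 0.0484 with 1 lens left out). Sox-2 (CL858.Contig1), an early partner of Pax-6 in lens formation, had 15.5, 18.6 and 32.4 RPKM with cataract, against 21.8, 30.0 and 35.8 RPKM without, and fell by 0.71 ± 0.15 on the log2 scale (adjusted p = 0.021, at most 0.0567 with 1 lens left out). SOX3 (Unigene7995), the most abundant of the list, averaged 133 ± 12.1 RPKM with cataract and 111 ± 9.22 RPKM without as deposited, and after scaling its change of 0.07 ± 0.10 did not pass (adjusted p = 0.823). Neither call held without the 3 retina-marked libraries (adjusted p = 0.179 for Maf-like and 0.181 for Sox-2).

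Heat shock proteins and chaperones, which refold damaged proteins, had 0 rises and 5 falls among 117 tested, beside 0.329% of all unigenes that rose and 1.25% that fell, and a median change of 0.01. Heat shock protein 70 (Unigene6290) had 16.1, 24.8 and 34.3 RPKM in cataract lenses, against 32.4, 38.8 and 46.1 RPKM in clear lenses (log2 change -0.90 ± 0.19, adjusted p = 0.0286). The co-chaperone dnaJ B5-like fell in both of its contigs, by 0.97 ± 0.15 for Unigene9627 and 1.06 ± 0.20 for Unigene13131. HSP 90-alpha (CL115.Contig2) averaged 30.0 ± 4.12 RPKM with cataract and 36.0 ± 4.0 RPKM without (-0.45 ± 0.10, adjusted p = 0.0295), and the fifth member that fell was a dnaJ C13-like unigene. The calls of the 2 heat shock proteins were lost without certain single lenses (adjusted p up to 0.0666 for HSP70 and 0.0707 for HSP 90-alpha). The list held 0 calls without the retina-marked libraries. On RPKM as deposited 8 members of the list rose and 3 fell, beside 3.83% of all unigenes that rose and 0.947% that fell on that scale.

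Channel subunits, lipid enzymes and receptors each gave a few calls. Over all unigenes tested 0.329% rose and 1.25% fell, to be set beside each count in this paragraph. A calcium channel subunit alpha-2/delta-3, which helps voltage-gated channels reach the membrane, fell in both contigs. Unigene8149 had 15.4, 18.5 and 25.4 RPKM with cataract, against 31.0, 36.1 and 45.4 RPKM without (log2 change -0.998 ± 0.15, adjusted p = 0.00412). CL913.Contig2 averaged 9.10 ± 2.13 RPKM with cataract and 16.2 ± 2.77 RPKM without (-0.99 ± 0.17). Neither contig overlapped between groups, and with copine-2 they were the 3 calls among 73 tested calcium, annexin and S100 unigenes. Of 84 fatty acid and sphingolipid unigenes 2 fell, ceramide synthase 2-like (Unigene9745, -0.81 ± 0.13), which makes long-chain ceramides, and acyl-CoA synthetase family member 2 (Unigene6553, -0.84 ± 0.16), which activates fatty acids. Of 39 growth factor and Notch signalling unigenes 3 fell, namely deltex homolog 2 (Unigene8638, -0.46 ± 0.09) and deltex-3-like (Unigene1081, -0.85 ± 0.19), of a family of ubiquitin ligases of the Notch pathway, and fibroblast growth factor receptor 2-like (CL2947.Contig1, -0.92 ± 0.21), a receptor for the signals that drive fibre differentiation. The cytosolic purine 5'-nucleotidase CL3736.Contig1, which like adenosine deaminase acts in purine breakdown, fell by 1.03 ± 0.20, and the pair were the 2 calls among 32 purine unigenes. With 1 lens left out the 3 signalling calls reached adjusted p of 0.0594 to 0.0817, while the 2 channel contigs, the 2 lipid enzymes and the nucleotidase stayed called. Unigene8149 was called without the retina-marked libraries (adjusted p = 0.0409) and the others were not, with 0.0564 for CL913.Contig2, 0.0597 for ceramide synthase 2-like and 0.0763 to 0.284 for the rest.

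Of 364 proteasome and ubiquitin unigenes 3 fell, beside 1.25% of all unigenes. They were the conjugating enzymes E2 O-like (Unigene14492, -0.73 ± 0.15) and E2 H (CL3610.Contig1, -0.51 ± 0.11) and the ligase RNF169 (Unigene11412, -0.89 ± 0.20). A V-type proton ATPase subunit S1-like unigene (Unigene4450), of the pump that acidifies lysosomes, fell by 0.62 ± 0.15 and was the 1 call in both the ion transport list (44 tested) and the autophagy list (61 tested). A second transposase (Unigene8528, -0.57 ± 0.13) made 2 falls among 93 transposon-derived unigenes. With 1 lens left out each of these 5 could lose its call, at adjusted p of 0.0591 to 0.0984, and without the retina-marked libraries none was called (0.0930 to 0.266). No member passed in the lists for the unfolded protein response (37 tested), antioxidants and glutathione (61), amino acid and peptide transport (33), glycolysis and polyols (39), sterol synthesis (34), cell cycle (41), p53 and apoptosis (74) and cytosolic ribosomal proteins (115), where the smallest adjusted p of any member ran from 0.0502 in the p53 list to 0.266 in the ribosomal list. On RPKM as deposited some members of these lists rose, for instance 17 of 115 ribosomal and 4 of 61 antioxidant unigenes. Of all unigenes tested 3.83% rose on that scale, where their median change was 0.19. The immune list (45 tested) held 1 call, galectin-3-like, which rose, beside 0.329% of all unigenes that rose.

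Ribosomal proteins nevertheless took a larger share of the reads. Their share was 5.98 ± 0.31% in cataract lenses and 5.29 ± 0.24% in clear lenses (exact permutation p = 0.00143, adjusted p = 0.00714), with no overlap between groups. After scaling of the libraries the same difference was -9.1e-05 points (adjusted p = 0.999), so that no difference was left on that scale. Before scaling it was 0.630 points without the retina-marked libraries (exact permutation p = 0.00667, the smallest possible there, adjusted p = 0.05). The 10 most abundant unigenes took 32.6 ± 1.124% with cataract and 34.4 ± 0.80% without (adjusted p = 0.0179, and 0.1 without the retina-marked libraries).

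Markers of other tissues were read beside these results. The 16 surface epithelium markers (keratins, ictacalcin, periplakin and the like) took 0.0702 ± 0.0618% of reads in cataract lenses and 0.0195 ± 0.0022% in clear lenses (exact permutation p = 0.00286, adjusted p = 0.0107). The difference with ploidy held was 0.0522 points. Leaving out single lenses gave 0.0251 to 0.068 points, with the lowest without 3N+ replicate 6, and the adjusted p was 0.144 to 0.15 when a 3N- lens was the one left out. Without the retina-marked libraries it was 0.0613 points (adjusted p = 0.1). Their summed level was 119.3 to 2392 RPKM with cataract and 103 to 151 RPKM without, and 15 of the 16 had a higher median with cataract. These are RPKM as deposited, a scale on which only 3661 of 17947 unigenes tested had a negative fitted change. The S100 protein ictacalcin (Unigene4061) had 92.3, 329, 1024 and 117 RPKM in 2N+ lenses and 73.0, 10.2 and 1452 RPKM in 3N+ lenses, against 4.76 to 22.4 RPKM in clear lenses. That range spans single lenses, and with a log2 change of 4.03 ± 0.96 it did not pass (adjusted p = 0.062). A keratin-18 contig (CL2631.Contig1) was at 12.0 to 128 RPKM in cataract lenses and at 7.7 to 10.7 RPKM in clear lenses. None of the 11 markers tested was called, beside 1.58% of all unigenes tested, so that count says little about these markers. After scaling 9 of the 11 had a positive change and 2 a negative one. Periplakin contigs changed little or went down (0.09 for Unigene8632, 0.02 for Unigene8631 and -0.26 for Unigene8630), and S100-A14 (Unigene9480) had -0.33. On RPKM as deposited 4 of the 11 rose, ictacalcin among them (adjusted p = 0.0333), beside 3.83% of all unigenes. The surface epithelium share was highest in 2N+ replicate 5 and 3N+ replicate 6, which also had the lowest connexin 43 of the 14. Without these 2, at 30 RPKM of connexin 43 or above, 438 unigenes were called, of which 54 rose and 384 fell. With the share as a covariate 24 of the 224 falls and 0 of the 59 rises were called.

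Muscle and vessel markers also separated the groups by share. Muscle and vessel markers took 0.0231 ± 0.0027% with cataract and 0.0178 ± 0.0020% without (exact permutation, adjusted p = 0.00714). Their sums were 214 to 283 RPKM with cataract and 174 to 220 RPKM without. The adjusted p of the share was 0.0986 after scaling and 0.0667 without the retina-marked libraries. Of 9 tested members 0 was called, beside 1.58% of all unigenes tested, so that count says little about these markers. The 4 haemoglobin unigenes, of red blood cells, summed to 15.5 to 412 RPKM with cataract and 4.78 to 95.7 RPKM without, and their share did not pass (adjusted p = 0.0935). Leukocyte markers summed to 0.80 to 6.29 RPKM with cataract and 3.42 to 7.57 RPKM without, with 1 of 4 at 0 in all 14 lenses (adjusted p = 0.0738). Retina markers summed to 3.7 to 3557 RPKM with cataract and 1.68 to 2207 RPKM without, and neither their share (adjusted p = 0.69) nor that of the single pigment marker (adjusted p = 0.69) passed. The part of these tissues in the called changes was not tested beyond the fits given.

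**Figure D4:**
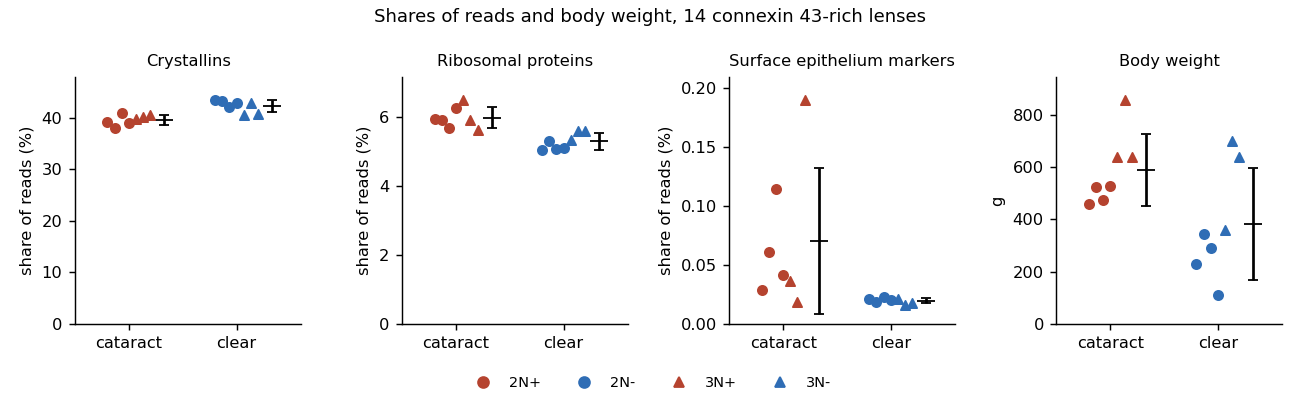
Shares of reads (%) of crystallins, ribosomal proteins and surface epithelium markers, and body weight (g), in the 14 connexin 43-rich lenses, cataract left of clear, circles for diploids and triangles for triploids, with mean and SD (n = 7 each). Crystallin shares were 38.0 to 40.9% with cataract and 40.6 to 43.5% without, and surface epithelium shares reached 0.19% in 1 cataract lens.

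The connexin 43-poor lenses, 7 with and 5 without cataract, share no fish with the rich ones and were fitted alone. Of the 224 unigenes that fell in the rich lenses 220 also had a negative change in the poor ones, which is 98.2%, against 48.1% of all tested. A negative change with an unadjusted p below 0.05 was found there for 182 of the 224 (81.2%, against 6.63% of all), and an adjusted p below 0.05 for 75. Of the 59 that rose 55 had a positive change in the poor lenses (93.2%, against 51.9%), 37 with an unadjusted p below 0.05 (62.7%, against 5.13%) and 8 with an adjusted p below 0.05. The median log2 change of the 224 was -0.84 in the rich and -0.60 in the poor lenses, and that of the 59 was 0.90 in the rich and 0.58 in the poor lenses. The changes in the rich lenses chose the unigenes, so these medians are not on an equal footing. Body weight moved with cataract there as well, at 613 ± 242 g with cataract (n = 7) and 385 ± 143 g without (n = 5).

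Adenosine deaminase was also called in the poor lenses and the short contig with a PRDM9 hit was not. Adenosine deaminase (Unigene4383) averaged 30.0 ± 14.1 RPKM with cataract (n = 7) and 59.5 ± 11 RPKM without (n = 5) there, a log2 change of -1.16 (adjusted p = 0.0168). The contig with the PRDM9 hit (CL3702.Contig2) averaged 15.4 ± 16.7 RPKM with cataract and 2.77 ± 1.28 RPKM without there, a log2 change of 1.503 (unadjusted p = 0.0265, adjusted p = 0.345). That mean rests on 36.9 and 42.4 RPKM in 2 cataract lenses, while the other 5 had 3.37 to 9.39 RPKM. Some rises were not seen in the poor lenses, where the change was -0.02 for FXYD regulator 5a and -0.05 for myosin-Va. The difference of the cataract change between rich and poor lenses was tested in all 26 libraries, and limma called 0 unigenes, with 772 (4.3%) at an unadjusted p below 0.05. No unigene can thus be called particular to the connexin 43-rich lenses.

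**Figure D5:**
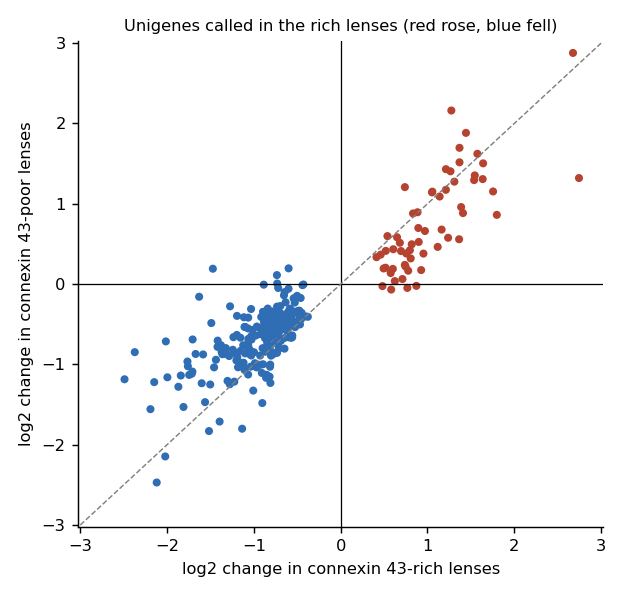
Log2 change of cataract over clear lenses in the connexin 43-rich lenses (x axis) and in the poor lenses (y axis) for the 283 unigenes called in the rich ones, red for those that rose and blue for those that fell; the dashed line marks equal change. Of the blue points 220 of 224 lie below 0 on the y axis and of the red points 55 of 59 lie above it.

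The cataract change was then compared between the ploidies. Fitted alone, the diploids gave 263 calls (1.47%) and the triploids 0, with 1040 unigenes (5.79%) at an unadjusted p below 0.05 in the 3 against 3 triploid lenses. The median log2 change of the 224 falls was -1.03 in diploids and -0.57 in triploids, and that of the 59 rises was 1.02 in diploids and 0.82 in triploids. These lenses took part in choosing the unigenes, so the shared sign is no separate evidence. The difference between ploidies itself passed for 1 unigene (0.00557%), with 1024 (5.71%) at an unadjusted p below 0.05. That unigene, Unigene10074, has no protein hit. It averaged 0.54 ± 0.26 RPKM in 2N+ and 9.09 ± 3.03 RPKM in 2N- lenses (n = 4 each), and 2.36 ± 0.48 RPKM in 3N+ and 3.66 ± 1.14 RPKM in 3N- lenses (n = 3 each). The triploid change minus the diploid change was 2.76 ± 0.36 on the log2 scale (adjusted p = 0.0262). This call was lost in 11 of the 14 fits that left out 1 lens. It was also lost on RPKM as deposited, at a pseudocount of 2, without a filter on low values and with a replicate block. With the filter asked of all 14 libraries Unigene10074 was too low to be tested. Its levels in the 2N+ lenses were 0.36 to 0.91 RPKM, near the 0.5 added before the log. In the poor lenses the wider gap was in triploids, a contrast that was not tested there, with 7.19 ± 4.33 RPKM in 2N+ and 12.8 ± 4.98 RPKM in 2N- (n = 2 each), and 0.40 ± 0.32 RPKM in 3N+ (n = 5) and 7.20 ± 4.55 RPKM in 3N- (n = 3).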

How the data were processed

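Lens poly(A) RNA of 26 fish was sequenced as 50-base single-end reads, per the labels. The authors deposited RPKM values (reads corrected for contig length and library size, per the file headers) for 26681 unigenes, with the best protein hit of 13784. A dash was read as 0. Assembler and aligner: not given in the sources used here. Whole reads were recovered for 100% of unigenes within 0.01 reads, and they gave TMM factors (trims 0.3 and 0.05, over 26 libraries), programmed for this purpose. A count model had been planned for the case of deposited counts; because the values were RPKM, limma 3.58.1 in R 4.3.3 (empirical Bayes, trend and robust) was fitted to log2(scaled RPKM + 0.5) with ploidy and cataract, for unigenes above 10 reads at the median library size in at least 7 of 14 libraries. The 7 libraries of 1 group could meet this filter alone. A contig could thus be tested only through the group where it was high. P-values were two-sided with Benjamini-Hochberg adjustment at 0.05 over the 17947 tested. The code was tested on simulated data. Group levels and overlaps use RPKM as deposited, so a ratio of 2 such means need not match the change. Each library came from its own fish, but nothing says how the fish were housed.

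Single measures were compared by exact permutation within ploidy (1400 arrangements, smallest p 0.00143), adjusted over 15 measures. A total of 24 gene lists and 6 marker lists were matched by the wording of protein hits. The libraries, lists and members were chosen with earlier results of these data known. Genes were named by rule: among hits that name a gene, with adjusted p below 0.05 and a mean of at least 2 RPKM, the 12 highest and 12 lowest changes; at most 4 called per list; the 3 most abundant of the crystallin, fibre and epithelium lists; and the 5 smallest p of each difference test. Others named were chosen after their values were seen, among them the 6 beta S, gamma N-A, gamma-like and beta A1 crystallins, CL533.Contig2, ictacalcin and scinderin like a. Alternatives covered scaling, pseudocount, filter, test, covariates, libraries and a replicate block. Same-numbered libraries did not pair: 2 of 13 pairs had a correlation of residuals over 0.1, and 0 of 12 libraries were closest to their own number. Figures were drawn with matplotlib 3.10.9, and tables were handled with pandas 2.3.3 and scipy 1.17.1.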

Additional observations from a re-analysis of the deposited data

Results flagged for a closer look

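Within the 7 cataract or 7 clear lenses, single samples that lay far from the rest by Dixon's test were looked for in 170 groups of values, and 19 were found; chance alone marks about 1 in 20 groups.

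Several lay in libraries with retina markers. Retina markers took 0.469% of reads in 2N+ replicate 2, far above the other cataract lenses, and 0.278% in 3N- replicate 1, far above the other clear lenses. The pigment marker share of 2N+ replicate 2 was also high, at 0.000592%. In 3N- replicate 1 zinc finger protein 391 (Unigene6503) was high at 4.62 RPKM and ceramide synthase 2-like (Unigene9745) at 9.15 RPKM.

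Other cataract lenses stood apart as follows. In 3N+ replicate 6 N-tetradecanoyltransferase Unigene8559 reached 48.4 RPKM, trout protein 1 Unigene8813 reached 126 RPKM and phakinin CL984.Contig2 reached 1500.0 RPKM. In 2N+ replicate 5 lens fiber membrane intrinsic protein CL256.Contig3 was at 1933 RPKM, Sox-2 CL858.Contig1 at 32.4 RPKM and SOX3 Unigene7995 at 158.9 RPKM. In 3N+ replicate 5 carboxypeptidase 6-like Unigene14374 was at 6.10 RPKM and adenosine deaminase Unigene4383 at 35.5 RPKM, both toward the clear lenses. Myosin-Va (Unigene17849) was at 11.1 RPKM in 2N+ replicate 3.

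Among clear lenses, adenosine deaminase Unigene4383 was low in 3N- replicate 6 at 44.7 RPKM. In 2N- replicate 6, the smallest fish, thymidine kinase Unigene5947 was high at 9.29 RPKM and gamma-crystallin B Unigene6143 at 6086 RPKM. Vimentin Unigene7433 was at 1817 RPKM in 2N- replicate 1, and N-tetradecanoyltransferase CL533.Contig2 was low in 2N- replicate 5 at 49.9 RPKM.

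The cataract change of Unigene10074 differed between triploids and diploids by 2.76 on the log2 scale, with an adjusted p of 0.0262 for the difference, a call lost in 11 of the 14 fits without 1 lens.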

How the results depend on the processing

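The count of 283 was within 1.5 times under the other pseudocounts, filters and tests run, except as follows. It was 858 on RPKM as deposited, 490 with array weights, 552 with connexin 43 as a covariate, 438 at 30 RPKM of connexin 43 or above, 8 with body weight, 0 in triploids only (limma; 1040 at an unadjusted p below 0.05), 56 without the retina-marked libraries and 29 with the surface epithelium share, the last pair chosen after seeing the data. With a replicate block it was 1, which says little since the numbers did not pair. Leaving out single lenses gave 133 to 386. Members of the gene lists that passed numbered 44, and in these settings 126, 86, 83, 82, 1, 0, 5 and 9, with 0 under the replicate block, 67 in the fit of all 26 libraries and 17 to 63 without single lenses. The difference between ploidies called 1 unigene, and 0 as deposited, at a pseudocount of 2, without a filter and with the replicate block. With the filter in all 14 libraries it also called 0, but Unigene10074 was too low to be tested there. Without single lenses it called 0 to 5, and 0 in 11 of 14 fits. The difference between rich and poor lenses called 0 throughout except 1 without 2N- replicate 4 (0 to 1). The ribosomal share difference of 0.665 points was -9.1e-05 after scaling; that of muscle and vessel markers was 0.00248 (adjusted p = 0.0986), and that of leukocyte markers passed at -0.00013. Without single lenses the surface epithelium difference was 0.0251 to 0.068 points (adjusted p up to 0.15, over the threshold without any 3N- lens), the scaling factor difference 0.114 to 0.166, the erythrocyte difference 0.00536 to 0.0104, the leukocyte difference -0.000142 to -9.26e-05 points, and the unigenes detected 78.4 to 120. Without the retina-marked libraries, again chosen after seeing the data, 150 arrangements allow no p below 0.00667. The differences that no longer passed were 151 g and 6.35 cm of body size, -2.35 (crystallins), 0.630 (ribosomal), 0.0613 (surface epithelium), 0.0054 (muscle and vessel) and -1.49 points (10 most abundant unigenes). The crystallin and ribosomal differences were at that smallest exact permutation p, with an adjusted p of 0.05, so no smaller p was possible for them. The causes were not tested. Of 2295 values for 70 named unigenes under alternatives, 1607 kept direction and side of the threshold, 654 no longer passed and 13 newly passed. The other 21 turned sign without passing in either fit, and they belong to 4 unigenes (connexin 43, vimentin, SOX3 and CL256.Contig3). The median of 17 reads for a unigene in 1 library limits what could be detected.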

Other observations

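Some transcripts outside the comparisons above are given as values. Cystathionine gamma-lyase (CL3665.Contig1), which makes cysteine, the building block of glutathione, averaged 82.9 ± 9.997 RPKM in cataract lenses and 104 ± 9.74 RPKM in clear lenses of the connexin 43-rich class (log2 change -0.52 ± 0.12, adjusted p = 0.0374), and it was chosen after its values were seen. Of the 8 unigenes called with body weight in the model, 5 were also among the 283. Those with a gene name were the rho GTPase-activating protein 12-like CL854.Contig1 (-0.54 without and -0.85 with body weight), the thyrotropin-releasing hormone-degrading ectoenzyme CL2646.Contig2 (-0.90 and -0.997) and the N-tetradecanoyltransferase Unigene8559 (1.27 and 1.89). Unigene9490, which has no protein hit, had the smallest adjusted p of all in both models, 6.38e-05 without and 0.02 with body weight.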
